A study of Homo sapiens with 7 samples.

Results

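The genes described here carry tryptophan into the cell, charge it onto its tRNA or break it down along the kynurenine pathway. They are 10 genes: TDO2, IDO1 and IDO2, which open the indole ring, AFMID, KYNU, KMO, HAAO and QPRT, which turn the product into kynurenine and onward to NAD, and WARS1 and SLC7A5, the synthetase and the transporter that handle tryptophan itself. Every probe set that the platform annotation gives to one of these genes alone was taken, which was 18 of 54675 probe sets and covered 10 of 19775 measured genes. The set was chosen on these same values because TDO2 was high in HDLM-2 and in no other line, so the TDO2 pattern is given as a description and supports nothing.

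Expression was measured in 7 established lines of Hodgkin lymphoma (HL), namely HDLM-2, U-HO1, SUP-HD1, KM-H2, L-540, L-428 and L-1236, by hybridising total RNA to Affymetrix arrays. Every line is a culture derived from a tumour, the labels name no treatment, none serves as a control for another, and each has 1 array. No difference between lines therefore has a replicate check, and no p-value is given. Levels are log2 values after background correction and quantile normalization, so a difference of 1 is a doubling. Where a gene had several probe sets, the one with the highest mean over the lines gave its level. Levels of different probe sets are not set against each other, because probe sets bind with different strength.

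Tryptophan is the rarest of the amino acids in most proteins, and cells that degrade it can lower the amount left for neighbouring T cells. The liver enzyme TDO2 and the interferon-induced enzyme IDO1 start the same route, and its product kynurenine is a ligand of the aryl hydrocarbon receptor. Hodgkin and Reed-Sternberg cells lie among many T cells and macrophages in the tumour, and in cultured lines such other cells are not part of the sample.

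A background level was set on each array from 107 probe sets of olfactory receptor genes, which belong to the nose, as the 95th percentile of their values. It was 5.59 in L-1236 and between 4.49 and 4.86 in the other 6 lines, so that low genes were hardest to read in L-1236. U-HO1 stood apart in the control probe sets, with ACTB read 2.11 higher at its 3' than at its 5' end, against 0.06 to 0.54 elsewhere, and with 18S ribosomal RNA at 11.12, against 5.23 to 7.06. Probe sets of 1 gene, each centred on its mean over lines, differed with an SD of 0.57, which served as the technical spread, and the SD was 0.70 in L-1236 and 0.72 in U-HO1. This spread is taken within arrays and holds no variation between cultures or arrays of a line, so passing it is not a replicate check. It is the SD of a single centred value, and a difference between 2 lines holds the spread of both. Between their own probe sets the SD was larger for TDO2, KYNU and KMO, at 1.49, 1.23 and 0.62. It was smaller for QPRT and WARS1, at 0.41 and 0.43. The methods name 2 laboratories for these arrays without saying which line came from which, so laboratory and line cannot be told apart. Of 8 genes that mark Hodgkin and Reed-Sternberg cells, 8 were above background in HDLM-2, KM-H2, L-540 and U-HO1, 7 in L-428 and SUP-HD1, and 6 in L-1236. SUP-HD1 read TNFRSF8, which encodes CD30, at 4.36, below its background level of 4.49, so this defining HL marker was not above background there on its only probe set.

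The enzymes that open the ring differed in which line they marked. TDO2, the heme dioxygenase of hepatocytes, read 8.79 in HDLM-2, against 3.20 in L-428, 2.95 in L-540, 2.88 in SUP-HD1, 2.76 in KM-H2, 2.76 in L-1236 and 2.55 in U-HO1 (probe set 205943_at). HDLM-2 was the only line above background, and the other 6 lines, all below it, have no order among themselves. The lead of HDLM-2 over the next line was 5.59. In RNA from a whole culture, fewer expressing cells and less RNA per cell cannot be told apart. Measured against the background level of each other line, the level in HDLM-2 was at least 9.19-fold higher than in L-1236 and at least 15.4-fold to 19.8-fold higher than in the other 5. This reading came from 1 of 2 TDO2 probe sets. The second, 231702_at, stayed below background in every line, at 2.97 in HDLM-2 and 2.65 to 3.55 in the rest, and its values over the 7 lines were unrelated to those of the first (r = -0.02, rho = 0.09).

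**Figure D1:**
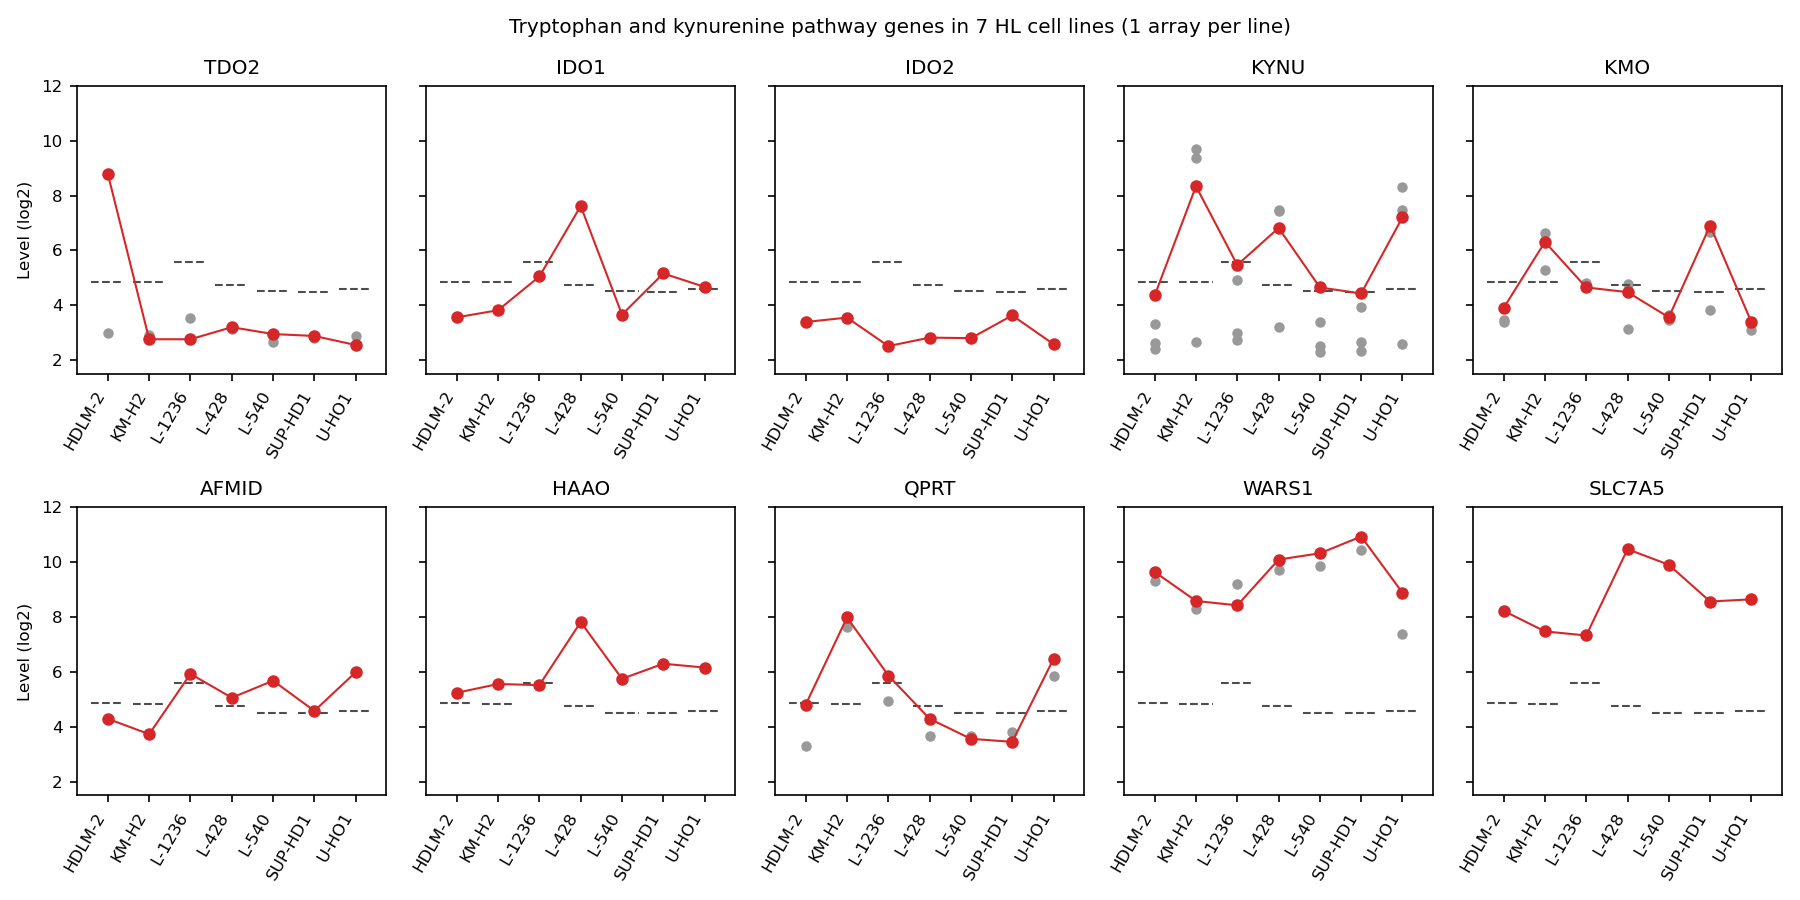
Levels of the 10 genes in the 7 HL cell lines (vertical axis, log2; 1 array each). The probe set used as the gene's level is in red, with its points joined to guide the eye, grey points are the gene's other probe sets, and the dashed bars are the background level of each array. TDO2 rose above the bar in HDLM-2 alone, IDO2 in no line, and WARS1 and SLC7A5 in all 7.

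A lead of at least 2 over every other line was uncommon for any gene. In HDLM-2 it was held by 81 of the 10554 genes above background there, which is 0.767%, and TDO2 ranked second among them by size, after CLDN14, a tight junction protein with a lead of 6.29. The share was 1.72% in KM-H2, 0.987% in L-1236, 0.533% in L-428, 0.655% in L-540, 0.679% in SUP-HD1 and 0.986% in U-HO1. Only 2 of the 10 genes had such a lead in any line, TDO2 in HDLM-2 and IDO1 in L-428, where IDO1 ranked 39 of 59. The first of these was used to choose the set, so nothing is read from its place.

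**Figure D2:**
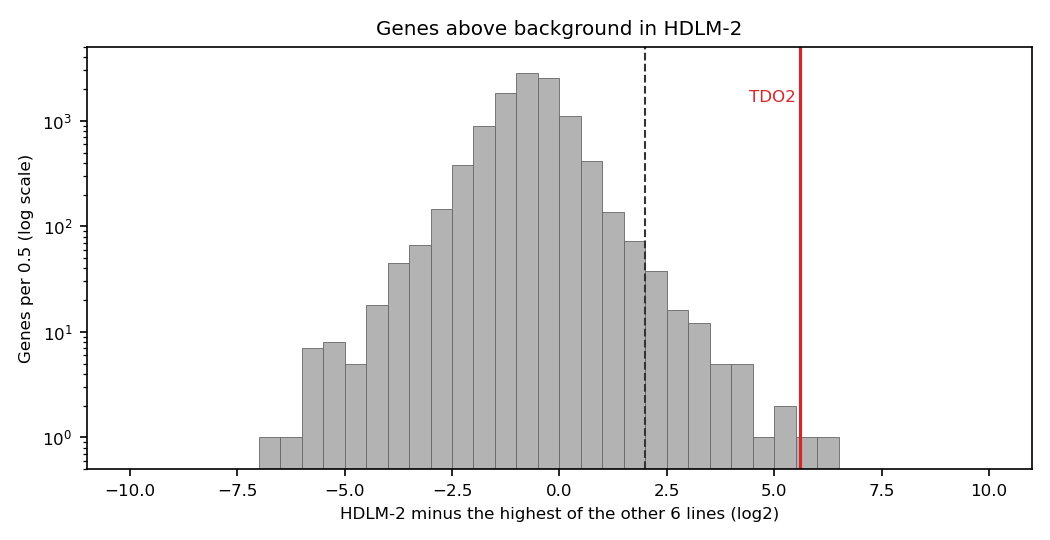
Lead of HDLM-2 over the highest of the other 6 lines (horizontal axis, log2) for the 10554 genes above background in HDLM-2, as numbers of genes per bin of 0.5 (vertical axis, log scale). The dashed line marks a lead of 2 and the red line marks TDO2 at 5.59, with 1 gene, CLDN14, further to the right.

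The RefSeq promoter window of TDO2 (GRCh38.p14, plus strand) is shown because TDO2 is the gene that set HDLM-2 apart. It runs from 250 bases before to 50 bases after the annotated start. Capitals mark matches, on either strand, to 6 short words that were searched in every member: the interferon regulatory factor core AANNGAAA, the gamma-activated site TTCNNNGAA, the amino acid response element core TGATGNAA, the aryl hydrocarbon receptor core GCGTG, the TATA box TATAAA and the glucocorticoid receptor core TGTTCT.
TDO2 promoter, chr4:155903446-155903745: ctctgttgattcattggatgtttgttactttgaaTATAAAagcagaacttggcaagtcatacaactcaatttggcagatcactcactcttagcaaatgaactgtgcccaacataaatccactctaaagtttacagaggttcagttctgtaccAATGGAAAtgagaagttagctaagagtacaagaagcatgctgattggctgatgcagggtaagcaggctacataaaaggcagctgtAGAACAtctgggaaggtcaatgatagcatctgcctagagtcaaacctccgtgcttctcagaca
The window held TATAAA 216 bases before the start, an interferon regulatory factor core 98 bases before it and, on the minus strand, a glucocorticoid receptor core 13 bases before it. Glucocorticoids are known to raise TDO2 in the liver. Among 35116 promoter windows of the same length, 11.5% held TATAAA, 22.8% the interferon regulatory factor core and 14.8% the glucocorticoid receptor core, so each word is common and a match is a description of letters only.

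The chromosomal neighbours of TDO2 on chromosome 4 were read to see whether the HDLM-2 level stood alone there. Of the 3 nearest measured genes on each side, CTSO, a lysosomal cysteine protease gene that lies next to TDO2, was also highest in HDLM-2. It read 7.39 in HDLM-2, against 6.14 in L-540, 5.36 in L-1236, 5.31 in U-HO1, 3.82 in L-428, 3.15 in SUP-HD1 and 2.76 in KM-H2. HDLM-2, L-540 and U-HO1 were above background and the lead of HDLM-2 was 1.25, past the technical spread. PDGFC, a growth factor gene, passed background only in U-HO1, with 6.75, and GUCY1A1, GUCY1B1, ASIC5 and GLRB were below background in every line. Copy number was not analysed here.

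**Figure D3:**
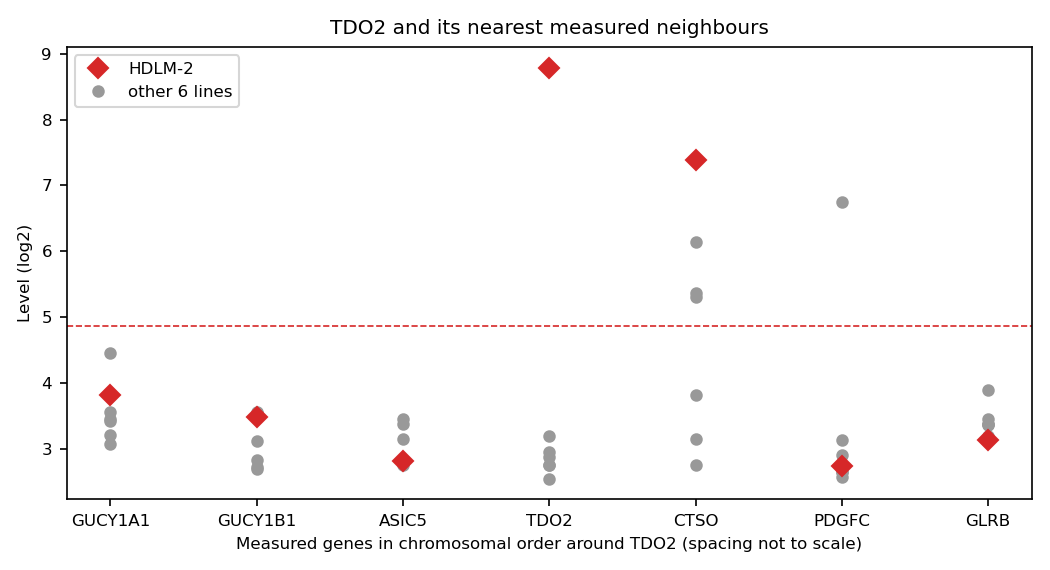
Levels of TDO2 and of the 3 nearest measured genes on either side of it (vertical axis, log2), with HDLM-2 as red diamonds and the other 6 lines as grey circles. The dashed line is the background level of HDLM-2, 4.86. TDO2 at 8.79 and CTSO at 7.39 are the 2 genes with HDLM-2 on top and above that line.

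Hepatocytes are the normal site of TDO2, and other hepatocyte genes were read in the same lines. HDLM-2 was above background for 1 of 9 measured, SERPINA1, the gene of a protease inhibitor that leukocytes also make, at 7.25, against 6.04 to 7.67 in the other 6 lines. ALB, APOA1 and TTR, which encode proteins of blood plasma, read 2.42, 4.50 and 4.14 in HDLM-2, all below its background level. FGB, TAT, HPD, SLC10A1 and CYP2E1 read 2.61 to 3.56 there. Ranges of the 9 genes over the lines were 1.02 to 3.49, and 3 reached 2: ALB, above background in SUP-HD1 alone at 5.91, APOA1, highest in L-1236 at 6.56, and TTR, highest in L-1236 at 6.49. Without _x_at and _s_at probe sets, the ranges of ALB and APOA1 were 0.56 and 1.01. HNF4A was not analysed here.

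The 5 genes whose pattern was most like that of TDO2, by Pearson's r over the 7 lines among 7265 genes with a range of at least 2, were ZNF329 (r = 0.991), ITM2A (0.989), ABI3BP (0.987), CLDN14 (0.986) and LAG3 (0.985). Their Spearman's rho was 0.40 to 0.77, since the order below HDLM-2 did not carry over. LAG3, an inhibitory receptor of activated T cells, read 9.13 in HDLM-2, against 3.21 to 3.99 in the other 6 lines. ZNF329 read 4.93 in HDLM-2, close to the background level of 4.86, against 2.31 to 2.76 elsewhere. With 1 line on top and 6 lines low, any gene that was high in HDLM-2 alone comes out in such a ranking.

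IDO1, the dioxygenase that interferon gamma induces in many cell types, marked L-428. It read 7.62 in L-428, against 5.16 in SUP-HD1, 5.05 in L-1236, 4.67 in U-HO1, 3.82 in KM-H2, 3.66 in L-540 and 3.56 in HDLM-2. L-428, SUP-HD1 and U-HO1 were above background, the last by less than the technical spread. L-428 was 5.50-fold above SUP-HD1 and 7.73-fold above U-HO1, and at least 4.08-fold to 8.63-fold above the 4 lines below background. SUP-HD1, L-1236 and U-HO1 followed each other by less than the spread, and the readings of KM-H2, L-540 and HDLM-2, below background, have no order. HDLM-2, the line with TDO2, had IDO1 below background and L-428 had TDO2 below background, so these enzymes were not found together above background in any line. IDO2, a paralogue with weak activity, read 2.51 to 3.63 and was above background in no line, as were 26.7% of all genes, and no fold is given.

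Among genes of interferon gamma signalling, IRF1 and GBP1 did not follow IDO1 over the lines. All 11 measured genes of this list were above background in at least 1 line, 9 with a range of 2 or more and a median range of 2.75. Of all genes, 26.7% were above background in no line, and 50.1% of the rest had a range of 2 or more. The ligand gene IFNG, named after its values were seen, was above background in L-540 alone, at 6.02, where IDO1 was below background. IRF1, the factor that carries the signal to many interferon gamma targets, read 7.16 in L-428, against 7.72 in KM-H2, 7.68 in SUP-HD1, 7.47 in HDLM-2, 7.07 in L-540, 6.54 in U-HO1 and 6.10 in L-1236, so that L-428 lay in the middle. GBP1, an interferon-induced GTPase, was highest in HDLM-2 at 9.16, against 7.42 in L-428 as the next line, and L-1236 and U-HO1 were below background. JAK2, the kinase of the receptor, was likewise highest in HDLM-2, at 9.44, against 4.91 to 8.46 in the other 6 lines. The chemokine gene CXCL10 read 11.55 in SUP-HD1, 10.90 in L-1236, 10.01 in KM-H2 and 9.37 in U-HO1, against 6.31 in L-428, 4.15 in L-540 and 3.82 in HDLM-2. IRF8, an interferon-induced factor of lymphoid and myeloid cells, read 10.03 in SUP-HD1 and 9.40 in L-428, against 4.46 to 7.40 in the other 5 lines. IRF1, GBP1, JAK2, CXCL10 and IRF8 thus had a line other than L-428 on top. IFNGR1, a receptor gene named after its values were seen, was highest in L-428, at 9.16, with HDLM-2 at 8.92 within the technical spread and L-1236 lowest at 6.41. The other receptor gene, IFNGR2, read 8.16 in L-428, against 10.63 in HDLM-2, the highest, and 8.08 in SUP-HD1, the lowest. JAK1 was lowest in L-428, at 8.60, with L-1236 at 8.69. Over the 7 lines, r between IDO1 and IRF1 was -0.16 (rho = -0.11), and between IDO1 and GBP1 0.08 (rho = 0.07). All lines share the platform and the normalization, and with n = 7 these values are a description.

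The genes most like IDO1 were SMG6 (r = 0.960), RINT1 (0.958), H2BC14 (0.948), U2AF1 (0.942) and SYTL2 (0.939), with rho of at least 0.82. This rho takes in 4 IDO1 readings below background, which have no order, and H2BC14 was above background in 1 line only. They are the top 5 of 7265 genes compared over 7 arrays, with L-428 far above the rest for IDO1, so the ranking is a description. SYTL2, a vesicle transport gene, had the widest range of them and read 9.16 in L-428, against 7.25 in SUP-HD1 and 3.11 to 6.22 in the other 5 lines.

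Downstream, the steps of the kynurenine branch were above background in different lines. AFMID, the formamidase that releases kynurenine, read 5.99 in U-HO1, 5.93 in L-1236, 5.68 in L-540, 5.06 in L-428 and 4.58 in SUP-HD1, against 4.29 in HDLM-2 and 3.73 in KM-H2, which were below background. The first 3 differed by less than the technical spread, and only U-HO1 and L-540 passed background by more than it, by 1.40 and 1.17, against 0.34 in L-1236, 0.31 in L-428 and 0.09 in SUP-HD1. HDLM-2 was thus the line with TDO2 but without a reading of AFMID above background on the only AFMID probe set.

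KYNU, kynureninase, which cleaves kynurenine and its hydroxylated form, was prominent in 3 lines. It read 8.34 in KM-H2, 7.21 in U-HO1 and 6.82 in L-428, against 5.47 in L-1236, 4.65 in L-540, 4.43 in SUP-HD1 and 4.36 in HDLM-2. L-540 was above its background level of 4.51 by less than the spread, and L-1236, SUP-HD1 and HDLM-2 were below theirs. KM-H2 was 2.19-fold above U-HO1 and 2.87-fold above L-428, at least 11.2-fold above HDLM-2 and at least 14.5-fold above SUP-HD1. U-HO1 and L-428 differed by less than the spread.
KYNU has the most probe sets of the 10 genes. The probe sets 210663_s_at and 217388_s_at gave the same 3 lines with a larger difference, at 9.36 and 9.69 in KM-H2, against 3.31 and 2.61 in HDLM-2, and they followed the first with r = 0.99 and 0.98. The remaining probe set, 210662_at, was below background in every line, at 2.32 to 3.20.

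The KYNU promoter window (RefSeq, GRCh38.p14, plus strand) is shown because KYNU was above background in 4 lines and not in 3, with the capitals marking the same words as above.
KYNU promoter, chr2:142877414-142877713: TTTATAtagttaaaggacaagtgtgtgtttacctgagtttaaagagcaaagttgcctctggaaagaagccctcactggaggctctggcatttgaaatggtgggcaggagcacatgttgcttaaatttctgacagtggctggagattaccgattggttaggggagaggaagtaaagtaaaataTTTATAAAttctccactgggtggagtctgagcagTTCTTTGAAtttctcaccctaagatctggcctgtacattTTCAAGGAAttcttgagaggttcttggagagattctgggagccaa
It held 2 gamma-activated sites, 34 bases before and 5 bases after the start, a word found in 7.66% of all windows, and TATAAA on both strands in overlapping positions 68 and 66 bases before the start, besides a match at its first bases. The letters of the interferon regulatory factor core were not in this window.

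KYNU resembled MAGEB1 (r = 0.982), DPY19L2 (0.978), HHEX (0.978), LINC01296 (0.976) and BCL2A1 (0.963), with rho of 0.86 to 0.96. This rho takes in 3 KYNU readings below background, which have no order, and the genes are the top 5 of 7265 compared. MAGEB1, a cancer testis antigen gene, read 10.20 in KM-H2, 8.96 in U-HO1 and 8.86 in L-428, against 2.65 to 4.93 in the other 4 lines, which it shared with KYNU as the low ones. BCL2A1, an inhibitor of apoptosis, was above background in all 7 lines and read 11.24 in KM-H2, 9.59 in L-428 and 8.93 in U-HO1, against 4.65 to 7.06.

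KMO, the mitochondrial hydroxylase that turns kynurenine towards NAD, was above background in SUP-HD1 at 6.91 and KM-H2 at 6.31, against 4.65 in L-1236, 4.48 in L-428, 3.90 in HDLM-2, 3.56 in L-540 and 3.38 in U-HO1. SUP-HD1 was 1.52-fold above KM-H2, a difference of 0.60 that barely passed the technical spread and lay below the SD of 0.62 between KMO probe sets. SUP-HD1 was at least 2.50-fold to 5.28-fold above the 5 lines below background. The probe set 205306_x_at had the same pair on top, with 6.69 in SUP-HD1 and 6.63 in KM-H2, and L-428, at 4.77, also passed its background level of 4.75. The probe set 205307_s_at did not, with 3.82 in SUP-HD1, below background, and 5.29 in KM-H2. KM-H2 was therefore the line read above background by all 3 KMO probe sets. On the probe sets used as gene levels it was also the line with both KMO and KYNU above background, and with 205306_x_at L-428 joined it.

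KMO promoter, chr1:241532128-241532427: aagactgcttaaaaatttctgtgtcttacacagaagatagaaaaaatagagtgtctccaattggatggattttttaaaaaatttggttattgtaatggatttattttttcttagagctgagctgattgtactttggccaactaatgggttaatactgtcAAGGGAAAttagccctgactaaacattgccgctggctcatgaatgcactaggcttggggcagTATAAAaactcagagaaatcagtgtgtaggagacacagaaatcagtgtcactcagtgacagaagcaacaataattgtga
The KMO window (RefSeq, GRCh38.p14, plus strand) is given beside that of TDO2 because both hold an interferon regulatory factor core at a similar distance, here 91 bases before the start, together with TATAAA, here 29 bases before it.

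HAAO, the dioxygenase that makes the precursor of quinolinate, read 7.82 in L-428, against 6.30 in SUP-HD1, 6.16 in U-HO1, 5.75 in L-540, 5.56 in KM-H2, 5.52 in L-1236 and 5.24 in HDLM-2. All lines but L-1236 were above background, HDLM-2 by 0.38, less than the technical spread. L-428 led by 1.52, and no neighbours among the other 6 lines differed by more than the spread. L-428 was 2.87-fold above SUP-HD1 and 5.98-fold above HDLM-2. QPRT, which turns quinolinate into the nicotinate mononucleotide on the way to NAD, read 7.99 in KM-H2, 6.48 in U-HO1 and 5.87 in L-1236, against 4.81 in HDLM-2, 4.29 in L-428, 3.56 in L-540 and 3.45 in SUP-HD1. The first 3 lines were above background, L-1236 by only 0.28, and the last 4 were not, with HDLM-2 close to its background level of 4.86. KM-H2 was 2.85-fold above U-HO1, 4.35-fold above L-1236 and at least 11.3-fold above SUP-HD1. The second QPRT probe set, 204044_at, put KM-H2 and U-HO1 on top as well, at 7.65 and 5.87, with L-1236 at 4.93, below background (r = 0.93 and rho = 0.67 between the 2). The steps on either side of quinolinate thus peaked in different lines, HAAO in L-428, where QPRT was below background, and QPRT in KM-H2.

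**Figure D4:**
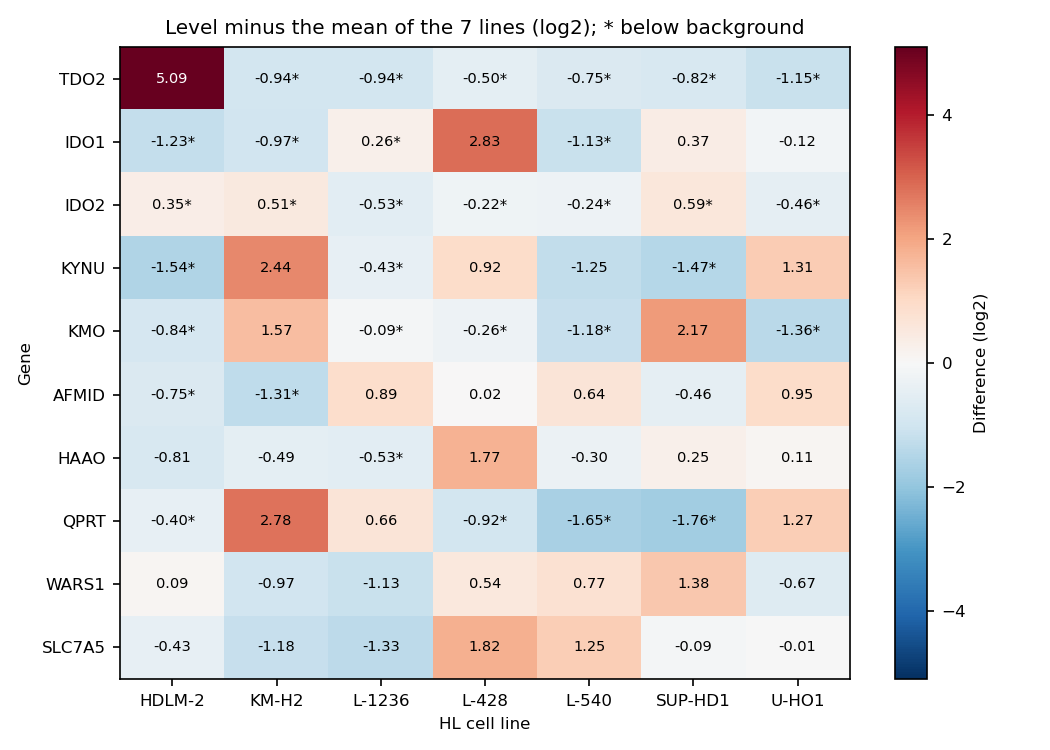
Level of each gene minus its mean over the 7 lines (log2, colour scale and printed values), with genes in rows and HL cell lines in columns. An asterisk marks a level at or below the background of that array. TDO2 in HDLM-2, at 5.09, is the largest difference, followed by IDO1 in L-428 at 2.83 and QPRT in KM-H2 at 2.78.

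Among other enzymes that use kynurenine or make NAD, some were above background throughout and some in no line. Of 11 genes on this list 8 were above background in at least 1 line, 6 in every line, and 4 had a range of 2 or more, with a median range of 1.78. Of all genes, 26.7% were above background in no line and 34.6% in every line. Of those above background in at least 1 line, 50.1% had a range of 2 or more. KYAT3, a transaminase that makes kynurenate, read 9.87 in L-540, against 8.56 in HDLM-2 and 6.96 to 8.12 in the other 5 lines. NAMPT, the enzyme that salvages nicotinamide, read 10.25 in SUP-HD1, where QPRT was below background, and 7.61 in U-HO1, with the other 5 lines between 8.22 and 9.52. NAPRT, which uses nicotinic acid, read 6.98 in HDLM-2, against 4.93 to 6.57 in the other lines, and NMNAT3 was above background in L-428 and U-HO1 alone, at 5.44 and 5.0. AADAT, ACMSD and NMNAT2 were above background in no line.

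Tryptophan can also be made into serotonin, and the enzymes of that branch were not above background. TPH1, TPH2, DDC, AANAT and ASMT were below background in all 7 lines. The 2 genes of this list that were read belong to amine breakdown. MAOA was read at 10.84 in L-1236, 10.06 in U-HO1, 8.73 in SUP-HD1, 8.23 in L-540 and 6.92 in L-428, against 4.75 in HDLM-2 and 3.36 in KM-H2, both below background. MAOB read 9.76 in U-HO1, 6.29 in HDLM-2 and 5.93 in L-428 and was below background in the other 4 lines.

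The genes that handle tryptophan itself were above background everywhere. WARS1 and SLC7A5 were the 2 of the 10 genes above background in all 7 lines, whereas 34.6% of all genes were. SLC7A5, the large neutral amino acid transporter LAT1, read 10.48 in L-428 and 9.91 in L-540, against 8.65 in U-HO1, 8.57 in SUP-HD1, 8.23 in HDLM-2, 7.48 in KM-H2 and 7.33 in L-1236. L-428 was 1.48-fold above L-540, within the technical spread, and 8.0-fold and 8.88-fold above KM-H2 and L-1236. U-HO1, SUP-HD1 and HDLM-2 followed each other by less than the spread, as did KM-H2 and L-1236. SLC3A2, the heavy chain that SLC7A5 needs at the membrane, followed a similar order, with 9.36 in L-428 and 9.18 in L-540, against 8.57 in SUP-HD1, 7.69 in KM-H2, 7.37 in HDLM-2, 7.29 in U-HO1 and 6.85 in L-1236. Over the lines r was 0.87 (rho = 0.75), and 0.49 without L-428 and L-540, so that the likeness rested largely on these 2 lines.

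Of 10 other transport genes, SLC3A2 among them, 9 were above background in at least 1 line and 6 had a range of 2 or more, with a median range of 2.51. Among all genes, 26.7% were above background in no line, and 50.1% of the rest had such a range. SLC1A5, a glutamine transporter that works beside LAT1, read 9.28 in L-540, against 8.23 in L-428 and 5.63 to 7.63 in the other 5 lines. SLC36A4, an amino acid transporter with high affinity for tryptophan, read 8.11 in L-540 and 7.79 in HDLM-2, and KM-H2 and L-1236 were below background. SLC7A11, the cystine and glutamate exchanger, read 7.59 in HDLM-2 and 7.46 in L-540, against 3.71 in L-1236, below background. SLC16A10, which carries aromatic amino acids, was above background in L-428 at 6.49, SUP-HD1 at 6.16 and KM-H2 at 5.03.

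WARS1, the cytoplasmic tryptophanyl-tRNA synthetase and an interferon gamma target, read 10.94 in SUP-HD1, 10.33 in L-540, 10.10 in L-428, 9.65 in HDLM-2, 8.89 in U-HO1, 8.59 in KM-H2 and 8.43 in L-1236. SUP-HD1 was 5.70-fold above L-1236 and 1.53-fold above L-540. The neighbours L-540, L-428 and HDLM-2 lay within the spread of each other in turn, as did U-HO1, KM-H2 and L-1236. The second probe set, 200628_s_at, had SUP-HD1 on top as well, at 10.46, but placed U-HO1 lowest at 7.38 and L-1236 at 9.20 (r = 0.78 between the 2), so the low end of the order depended on the probe set. WARS2, the mitochondrial synthetase, read 7.01 in L-428, 6.97 in L-540 and 6.86 in SUP-HD1, against 4.99 in L-1236, where it was below background. Its r with WARS1 was 0.79 (rho = 0.86), and 0.93 without SUP-HD1 and L-1236.

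WARS1 has 2 RefSeq promoter windows, both on the minus strand of GRCh38.p14, and both are shown because they differ in the words they hold.
WARS1 upstream promoter, chr14:100376278-100376577: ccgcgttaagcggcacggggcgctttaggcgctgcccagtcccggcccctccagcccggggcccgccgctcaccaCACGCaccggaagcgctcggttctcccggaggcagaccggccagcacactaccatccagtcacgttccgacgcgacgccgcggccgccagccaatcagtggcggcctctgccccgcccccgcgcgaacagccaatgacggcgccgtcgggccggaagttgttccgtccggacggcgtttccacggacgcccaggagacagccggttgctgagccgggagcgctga
WARS1 downstream promoter, chr14:100375298-100375597: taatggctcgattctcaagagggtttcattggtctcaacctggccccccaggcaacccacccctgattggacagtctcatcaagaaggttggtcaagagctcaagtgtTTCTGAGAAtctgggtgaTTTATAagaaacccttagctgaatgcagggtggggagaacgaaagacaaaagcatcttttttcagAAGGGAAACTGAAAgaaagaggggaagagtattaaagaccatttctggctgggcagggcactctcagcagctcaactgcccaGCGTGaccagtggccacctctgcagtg
The upstream window held 1 of the words, GCGTG on the minus strand, 175 bases before its start. The downstream window held a gamma-activated site 142 bases before its start and a pair of overlapping interferon regulatory factor cores 59 and 53 bases before it, besides GCGTG 23 bases after the start and TATAAA on the minus strand. The percent of G and C was 72.7 in the upstream window and 49.7 in the downstream one, against a median of 58.7 over all windows. The array values do not tell which start was used.

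Across the 8 genes with a RefSeq window, which were all but IDO1 and IDO2, and their 10 windows, the interferon regulatory factor core was found in 3 genes (TDO2, KMO and WARS1), the gamma-activated site in 2 (KYNU and WARS1), GCGTG in 3 (AFMID, WARS1 and SLC7A5), TATAAA in 5 and the glucocorticoid receptor core in 2 (TDO2 and QPRT). By window, 3 of the 10 held the interferon regulatory factor core, against 22.8% of all windows, and 2 the gamma-activated site, against 7.66%. GCGTG was in 4, against 36.5%, and TATAAA in 5, against 11.5%. The glucocorticoid receptor core was in 3, against 14.8%, and 2 of these are overlapping QPRT windows with the same match. The amino acid response element core, found in 3.62% of all windows, was in none of the 10, and the HAAO window held no word at all.

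The response to amino acid shortage was read next to these genes, since uncharged tRNA starts it. All 10 genes on the list were above background in at least 1 line, 8 in every line, and 7 had a range of 2 or more, with a median range of 2.11. Among all genes, 34.6% were above background in every line. Of those above background in at least 1 line, 50.1% had such a range. ATF4, its central factor, read 11.17 in SUP-HD1 and 10.24 in HDLM-2, and varied by 0.93 over the 7 lines. ASNS, asparagine synthetase and an ATF4 target, read 10.28 in L-428, 10.05 in SUP-HD1 and 10.03 in L-540, against 8.17 in U-HO1, with r of 0.76 to WARS1 (rho = 0.79) and 0.55 to SLC7A5 (rho = 0.57). SLC7A5 and ATF4 were unrelated over the lines (r = -0.04). EIF2AK4, the kinase that senses uncharged tRNA, read 8.74 in HDLM-2, against 8.13 in L-540 and 5.24 in KM-H2, the lowest. GCN1, its partner, ran the other way at these ends, with 9.50 in KM-H2 and 7.35 in HDLM-2. TRIB3, an ATF4 target, was lowest in HDLM-2 at 6.16 and reached 8.32 in L-540. ATF3 read 10.14 in L-540 and was lowest in U-HO1, at 7.10.

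**Figure D5:**
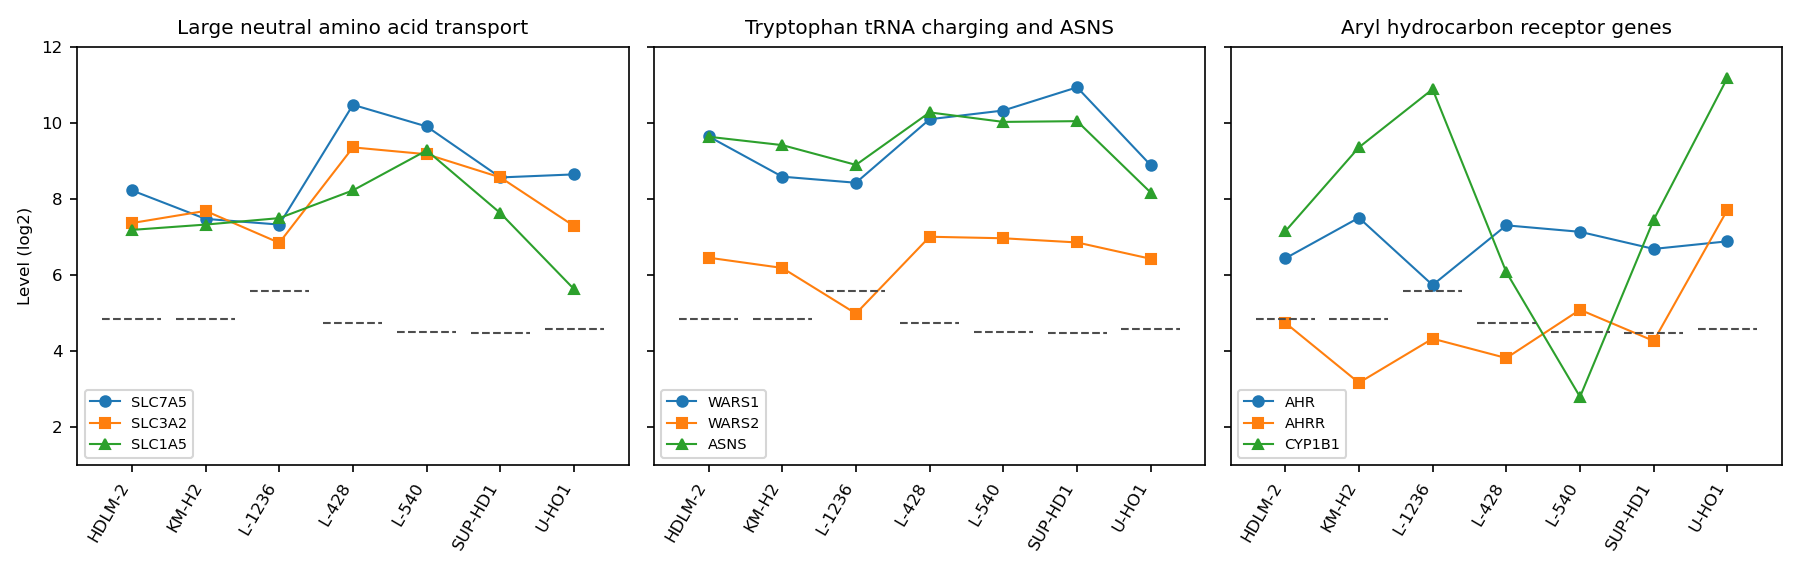
Levels over the 7 HL cell lines (vertical axes, log2; 1 array per line) of SLC7A5 with SLC3A2 and SLC1A5, of WARS1 with WARS2 and ASNS, and of AHR with AHRR and CYP1B1. Dashed bars are the background level of each array, and the lines between points only guide the eye. SLC7A5 and SLC3A2 are highest in L-428 and L-540, whereas CYP1B1 runs between 2.80 in L-540 and 11.19 in U-HO1 with AHR above background in every line.

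Kynurenine binds the aryl hydrocarbon receptor, and the receptor and its known targets were read beside the enzymes. AHR was above background in every line, at 7.51 in KM-H2, 7.31 in L-428, 7.14 in L-540, 6.89 in U-HO1, 6.69 in SUP-HD1, 6.44 in HDLM-2 and 5.74 in L-1236. All 7 genes of this list were above background in at least 1 line, and 4 had a range of 2 or more, with a median range of 2.05. Among all genes, 26.7% were above background in no line, and 50.1% of the rest had a range of 2 or more. CYP1B1, a target of the receptor, read 11.19 in U-HO1, 10.89 in L-1236, 9.36 in KM-H2, 7.46 in SUP-HD1, 7.15 in HDLM-2 and 6.08 in L-428, against 2.80 in L-540, below background. CYP1A1 was above background in KM-H2 and L-1236 alone, at 6.50 and 6.49, and AHRR, the receptor's repressor, read 7.72 in U-HO1 and 5.09 in L-540 and was below background elsewhere. HDLM-2, the line with TDO2, was on top for none of these 3 targets. It was on top for IL4I1, a secreted oxidase of aromatic amino acids that also makes ligands of the receptor, at 9.48, against 8.37 in L-428 and 7.43 to 8.30 in the other 5 lines. TIPARP, also on this list, was above background in all 7 lines and highest in U-HO1 at 9.27, with HDLM-2 at 8.76. The r of AHR was 0.54 with KYNU, 0.10 with IDO1 and -0.25 with TDO2. Kynurenine and the activity of the receptor were not measured, and a link of TDO2 to these genes was not tested.

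Genes of macrophages and dendritic cells, which can express IDO1 and KYNU, were read because such cells surround HL tumour cells. Of 8 measured, 5 were above background in at least 1 line, none in every line, and CD163, LYZ and MRC1 in no line. The shares of all genes were 34.6% in every line and 26.7% in no line. CD14 was above background in KM-H2 alone, at 6.02, and CSF1R was highest in L-540 at 7.65, with KM-H2 at 6.63. LAMP3, a gene of mature dendritic cells, read 9.15 in HDLM-2, 6.88 in U-HO1, 6.01 in L-428 and 5.34 in KM-H2, and ITGAX read 6.92 in L-540 and 6.31 in HDLM-2. The median level of this list was 3.58 to 4.42, below background in every line. Macrophages and dendritic cells are not part of cultured lines, and a link of these genes to the levels of the 10 genes was not tested. CD68 was not analysed here.

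Taking the 10 genes as a set, 9 were above background in at least 1 line, and the same 9 had a range over the lines of 2 or more, where 50.1% of all genes above background in at least 1 line did. Their median range was 3.53, against 2.00 for all such genes. The ranges ran from 6.24 for TDO2, 4.54 for QPRT, 4.06 for IDO1, 3.98 for KYNU, 3.53 for KMO and 3.15 for SLC7A5 to 2.58 for HAAO, 2.51 for WARS1 and 2.26 for AFMID, and IDO2 varied by 1.12 below background. With levels below background raised to it, TDO2 kept 4.30 and AFMID came down to 1.41. The set was chosen with such values known, so this count describes it only.

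By line, 7 of the 10 genes were above background in U-HO1, 6 in KM-H2, L-428 and SUP-HD1, 5 in L-540 and 4 in HDLM-2 and L-1236. The corresponding share of all genes was 57.4% in U-HO1, 54.1% in KM-H2, 56.0% in L-428, 58.8% in SUP-HD1, 57.9% in L-540, 53.4% in HDLM-2 and 43.5% in L-1236. HDLM-2 paired TDO2 with HAAO, WARS1 and SLC7A5 and was below background for AFMID, KYNU, KMO and QPRT. KM-H2 had KYNU, KMO, HAAO and QPRT above background with none of the 3 ring-opening enzymes. L-428 and U-HO1 had IDO1, AFMID, KYNU and HAAO, and U-HO1 added QPRT. SUP-HD1 had IDO1, AFMID, KMO and HAAO. L-540 had AFMID, KYNU and HAAO, and L-1236 had AFMID and QPRT, each beside WARS1 and SLC7A5. Several of these readings passed background by less than the technical spread of 0.57: HAAO in HDLM-2, AFMID in L-1236, L-428 and SUP-HD1, QPRT in L-1236, KYNU in L-540 and IDO1 in U-HO1. The other probe sets of QPRT in L-1236 and of KYNU in L-540 were below background. Others were below background by less than the spread: QPRT and KYNU in HDLM-2, KMO and QPRT in L-428, IDO1, KYNU and HAAO in L-1236, and KYNU in SUP-HD1. On the probe sets used as gene levels, no line was above background for an enzyme at every step of the route to NAD. For L-428 this turned on readings within the spread, KMO and QPRT at -0.27 and -0.46 relative to background. The second QPRT probe set read 3.66 there, against a background level of 4.75.

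The 10 genes did not share one order of lines. Among their 45 pairs, r was positive in 21 and negative in 24, with a median of -0.10. The pair with the highest r was IDO1 and HAAO (r = 0.92, rho = 0.75), both with L-428 on top, and r was 0.46 without L-428 and HDLM-2. KYNU and QPRT, both with KM-H2 on top and U-HO1 next, had r = 0.80 (rho = 0.71), and 0.26 without these 2 lines. QPRT and WARS1 gave r = -0.90 (rho = -0.89), and -0.97 without KM-H2 and U-HO1. However, 4 of the 7 QPRT readings were below background and the place of L-1236 in WARS1 depended on the probe set. IDO2 and AFMID gave r = -0.92, and -0.95 without SUP-HD1 and KM-H2, but all IDO2 readings were below background. With 7 lines, a shared platform and no replicate, these are descriptions of the lines measured.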

How the data were processed

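Gene expression of 7 Hodgkin lymphoma cell lines was measured with 1 Affymetrix array per line. Per the methods, the authors corrected the array intensities for background with RMA, normalized them by quantiles and deposited log2 values per probe set. RMA, affy and limma are named in the submitters' processing notes, with versions not given in the sources used. All 7 value columns were used.

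Lines were mapped by sample title. Gene names of probe sets came from the platform annotation: 41097 had 1 gene symbol, 1801 several and 11777 were unnamed here, and only the first were used, with symbols updated for 41043 of them through the RefSeq gene table. The probe set with the highest mean over lines gave a gene's level. The background of an array was taken from 107 probe sets of olfactory receptor genes, at their 95th percentile, and the technical spread was the pooled SD between probe sets of a gene (0.57, from 10523 genes with 31845 probe sets). It can also hold differences between transcripts. With 1 array per line no test was run, and precision is limited by the number of arrays. A fold against a line below background was taken against that line's background level and given as a lower bound. Computation used Python 3.11.15, numpy 2.4.6 and pandas 2.3.3, and the scripts were tested on simulated data.

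The members and gene lists were chosen with earlier results of these data known. Named were all members with all probe sets, up to 4 genes of widest range in each of the 9 other lists with SLC3A2, AHR, IRF1, ATF4, ASNS and WARS2, all hepatocyte genes, the 5 genes most like TDO2, KYNU and IDO1 by r, and 3 neighbours of TDO2 on each side. The alternatives were another choice of probe set, scaling and background, a floor at background, a range of 3, and leaving out each line. RefSeq promoter windows (GRCh38.p14) were searched on both strands for 6 words. The build behind the array annotation is not known, and no coordinate of a probe set is used.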

Additional observations from a re-analysis of the deposited data

Results flagged for a closer look

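In 3 of the 10 genes a line had a gap to the next line that was large for the whole range of the gene. The cut-off is set so that chance puts about 1 in 20 groups of normally distributed values apart. Levels over different lines need not be so distributed, and the share of all genes set apart was not computed. The 3 of 10 is therefore not read as an excess. Nor does the rate apply to TDO2, which was chosen for its reading in HDLM-2, and 6 of its 7 readings were below background. TDO2 in HDLM-2 read 8.79, with a gap of 5.59 to L-428 that made up 0.90 of the range. IDO1 in L-428 read 7.62, with a gap of 2.46 to SUP-HD1, or 0.61 of the range. HAAO in L-428 read 7.82, with a gap of 1.52 to SUP-HD1, or 0.59 of the range. L-428 was thus set apart for 2 genes and HDLM-2 for 1, each high. The TDO2 reading rests on 1 of its 2 probe sets, and IDO1 and HAAO each have a single probe set. No line was set apart at the low end.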

How the results depend on the processing

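With 1 array per line, no difference between lines has a replicate check, and readings at or below background have no order. The number of the 10 genes above background in every line was 2. It was 1 without _x_at and _s_at probe sets, because SLC7A5 then has no probe set, and 4 with the 90th percentile as background. Leaving out each line gave 2 to 3, with 3 when L-1236, the line with the highest background, was left out. The lead of TDO2 in HDLM-2, 5.59, became 2.72 with the mean of its 2 probe sets, because the second was below background everywhere, and 3.20 with values below background raised to it. Without each other line it was 5.59 to 5.84, and without L-1236 and U-HO1 together, an alternative chosen after seeing the data, it was 5.59. The count of genes with a range of 2 or more, 9, stayed between 6 and 9 under all alternatives run, the lowest with a range of 3 required. Leaving out the top line brought the range below 2 for IDO1 and HAAO without L-428 (1.60 and 1.06) and for WARS1 without SUP-HD1 (1.90). AFMID came to 1.41 with the floor. Without HDLM-2 the range of TDO2 was 0.90, but 231702_at then became its probe set of highest mean. On 205943_at the other 6 lines read 2.55 to 3.20. WARS1 in L-1236, 1.13 below the mean of the lines, was 0.02 above it with the probe set of largest variance. Of 826 values of a gene minus the mean of the lines, 794 shifted by under the technical spread and 31 by over it, besides the WARS1 value in L-1236. Of 128 ranges of the 10 genes, 112 shifted by under the spread and 16 by over it. Of 517 ranges of the named genes outside the set, 422 shifted by under the spread and 95 by over it. These tallies are no measure of steadiness and are not compared. IDO1, IDO2, AFMID, HAAO and SLC7A5 have 1 probe set each, so another choice of probe set cannot shift them. On a given probe set, leaving out a line that is neither highest nor lowest cannot change a range. Most named genes outside the set were picked for a wide range. Outside the 10 genes, SLC16A10 and ASNS, with ranges of 3.62 and 2.11, varied by 0.95 and 0.49 without probe sets ending in _x_at or _s_at, and TTR, APOA1 and WARS2 varied by 1.62, 1.01 and 0.82 without L-1236. No paired analysis was possible because the lines have 1 array each.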
